A study of Mus musculus with 17 samples.

Results

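The 10 genes described here encode enzymes that cut the extracellular matrix and the inhibitors that restrain them. They are the secreted metalloproteinases Mmp2, Mmp9, Mmp12, Mmp13 and Mmp19, the membrane-anchored metalloproteinase Mmp14, the tissue inhibitors of metalloproteinases Timp1, Timp2 and Timp3, and the urokinase gene Plau. They were chosen by name, with earlier results of these data known. Each was listed under its symbol in all 4 expression tables, which together hold 35147 symbols. Matrix metalloproteinases are zinc enzymes made as inactive precursors. Between them they degrade collagens, elastin and basement membrane, and TIMP proteins bind their active sites. Urokinase turns plasminogen into plasmin, a serine protease that degrades fibrin and can activate several metalloproteinase precursors. In the mammary gland such enzymes take part in ductal growth and in the remodelling of the gland, and macrophages are one of their sources.

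RNA was sequenced from 17 libraries of mammary cells of virgin mice, in 12 groups, to follow signalling by the chemokine CXCL12 and its receptor CXCR4 between epithelium and macrophages. Macrophages sorted on F4/80 and CD11b came, with 2 libraries a group, from mice whose Cxcr4 was deleted with LysM-Cre (LysmCre+, Cxcr4fl/fl), from LysM-Cre controls (LysmCre+), from mice whose Cxcl12 was deleted with K8-Cre (K8Cre+, Cxcl12fl/fl), and from K8-Cre controls (K8Cre+). LysM-Cre is active across myeloid cells. K8-Cre is active in luminal epithelial cells, so the macrophages of the Cxcl12 knockout are not the cells in which the gene was deleted. The controls carry the Cre of their line and are named wild type. Wild-type macrophages were also sorted by surface CXCR4 into CXCR4+ cells (2 libraries) and CXCR4- cells (1 library). Further wild-type macrophages were cultured in RPMI with 2% FBS and treated with recombinant CXCL12 plus the AKT inhibitor GSK690693, with GSK690693 alone, with CXCL12 alone or with neither, 1 library each. The labels give no dose or time of treatment, and no age of the mice. The P4 population (Lin-CD24+CD29hi), basal cells enriched for mammary stem cells, gave 1 library of the K8-Cre Cxcl12 knockout and 1 of the K8-Cre control. Whether the repeats of a group are separate animals is not stated in the labels, so the spread between libraries may be technical. The p-values use a spread fitted over all genes by level, mostly so in the knockout comparisons and wholly so in the sort.

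Depth, in M reads, was 8.60 to 37.2 for the knockout experiments, 23.2 to 28.8 for the sort and 14.3 to 29.0 for the cultures. For the P4 libraries the depth is unknown. A count of 3 reads corresponded to 0.0806 to 0.349 CPM (counts per M counted reads), for counting error only. Across the 11 freshly sorted macrophage libraries the summed level of 8 macrophage markers was 3058 to 14405 CPM, and at least 7 of the 8 reached 1 CPM. The summed level of 8 fibroblast markers was 99.9 to 790.2 CPM there, with all 8 at 1 CPM or more. In these bulk samples, fewer cells of a type and less RNA per cell cannot be told apart. In the P4 libraries 6 basal epithelial markers summed to 6278 FPKM (the length- and depth-scaled unit of that table) in the knockout and 4662 FPKM in the control. Cxcr4 itself was at 232 and 140 CPM in Cxcr4 knockout macrophages, against 819 and 318 CPM in their controls, and it was at 632 and 875 CPM in CXCR4+ cells, against 772 CPM in CXCR4- cells. The groups of the knockout did not overlap, while the CXCR4- library lay between both CXCR4+ libraries, although the sort was made on surface protein. The fitted log2 change in the knockout was -1.49 (95% interval from -2.46 to -0.53, limma adjusted p = 1). Cxcl12, deleted in luminal cells, was at 58.2 and 164 CPM in macrophages of the Cxcl12 knockout, against 11.7 and 149 CPM in controls, and at 350.0 FPKM in P4 cells of the knockout, against 269.9 FPKM in the control. Neither cell type is the one in which Cxcl12 was deleted, so these levels do not check the deletion.

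On GRCm38 (GENCODE M21), Mmp13 lies on chromosome 9 at 7272514 to 7283331 and Mmp12 lies near it at 7344381 to 7369499. Mmp2 is on chromosome 8 at 92827291 to 92853420, Mmp9 on chromosome 2 at 164940780 to 164955850, Mmp14 on chromosome 14 at 54431612 to 54445364 and Mmp19 on chromosome 10 at 128790910 to 128800824. Plau is on chromosome 14 at 20836660 to 20843385. Timp1 (chromosome X, 20870166 to 20874735) lies within the synapsin gene Syn1 and Timp3 (chromosome 10, 86300372 to 86349506) within Syn3, both on the opposite strand, and Timp2 (chromosome 11, 118301069 to 118355740) overlaps Cep295nl on its own strand. Mmp19 overlaps Tmem198b and the antisense gene Gm47093, and Mmp12 overlaps Mmp1b, again on the opposite strand. Whether reads were counted by strand is not given in the sources used here, so the levels of these 5 members could include reads of their partners. In the cultures Syn3 reached at most 19.8 CPM, where Timp3 was at 796 CPM or more. In freshly sorted macrophages Syn3 reached at most 6.46 CPM, in the first Cxcl12 knockout library, where Timp3 was at 40.4 CPM. Tmem198b reached 39.2 CPM in the first K8-Cre control library, where Mmp19 was at 68.8 CPM. Syn1 reached 38.7 CPM in the first K8-Cre control library, where Timp1 was at 0.233 CPM. In the CXCR4 sort Tmem198b was at 13.7 and 11.3 CPM in CXCR4+ cells and 8.88 CPM in CXCR4- cells. Mmp19 was at 59.7, 147 and 30.7 CPM in the same order. Syn1 was at 4.24, 2.13 and 1.94 CPM there, where Timp1 was at 4.06, 2.43 and 0.129 CPM.

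RefSeq start-site windows on GRCm38.p6, from 250 bases before a RefSeq start to 50 after it, were at hand for 6 of the 10 members. They were searched on both strands for the AP-1 motif TGANTCA, the TATA motif TATAAA, the GC box GGGCGG and the ETS core AGGAAG, none of which contains another. Of 32851 such windows in the mouse genome, 7.81% hold the AP-1 motif, 13.6% the TATA motif, 35.7% the GC box and 35.4% the ETS core. The windows of Mmp13 and Mmp14, which passed the test in the CXCR4 sort, and of Timp3, which did not, are shown here with the matches in capitals. They lie on the forward strand at chr9:7272264-7272563, chr14:54431348-54431647 and chr10:86300162-86300461.
Mmp13: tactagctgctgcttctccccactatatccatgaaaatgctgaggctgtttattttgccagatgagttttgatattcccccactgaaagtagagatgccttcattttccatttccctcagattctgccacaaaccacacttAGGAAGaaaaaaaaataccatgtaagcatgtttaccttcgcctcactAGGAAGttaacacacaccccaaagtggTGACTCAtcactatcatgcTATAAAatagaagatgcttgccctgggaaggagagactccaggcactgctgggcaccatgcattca
Mmp14: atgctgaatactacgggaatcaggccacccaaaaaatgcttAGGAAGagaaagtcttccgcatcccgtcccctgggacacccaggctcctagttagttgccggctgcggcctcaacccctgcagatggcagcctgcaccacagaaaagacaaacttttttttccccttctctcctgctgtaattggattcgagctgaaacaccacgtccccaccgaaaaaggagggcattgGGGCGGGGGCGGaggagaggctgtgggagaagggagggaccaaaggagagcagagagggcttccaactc
Timp3: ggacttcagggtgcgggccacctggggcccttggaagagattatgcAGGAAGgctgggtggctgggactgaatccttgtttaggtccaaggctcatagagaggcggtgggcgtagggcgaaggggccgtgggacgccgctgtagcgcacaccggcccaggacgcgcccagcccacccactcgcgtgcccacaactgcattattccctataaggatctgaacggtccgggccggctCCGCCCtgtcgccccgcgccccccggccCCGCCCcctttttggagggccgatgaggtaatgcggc

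In the Mmp13 window the capitals are ETS cores at 109 and 62 bases before the gene start, the AP-1 motif TGACTCA at 35 bases before it and the TATA motif at 16 bases before it. The Mmp14 window holds 1 ETS core and 2 adjoining GC boxes, and the Timp3 window 1 ETS core and 2 GC boxes on the other strand, with neither an AP-1 nor a TATA match. Of the windows not shown, that of Timp2 holds 1 GC box, that of Timp1 holds 1 GC box and 3 ETS cores, and that at the annotated start of Mmp12 holds 1 ETS core and none of the other motifs. A second RefSeq start of Mmp12, away from the annotated one, holds an AP-1 and a TATA motif. The Timp2 window is also set on a RefSeq start inside the annotated gene. A match is a description of these letters, not a sign that a factor binds.

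Per kilobase of exon, Plau was the most abundant member in freshly sorted macrophages, with a median of 60.3 CPM per kb over the 11 libraries (range 18.5 to 331). Timp2 followed at 38.7 CPM per kb (14.2 to 107). Mmp19, Mmp9 and Mmp12 had medians of 25.6, 25.5 and 19.6 CPM per kb, and Mmp13 had 11.5 CPM per kb, with the widest range of the 10 relative to its median, from 0 to 81.7. Timp3, Mmp2, Mmp14 and Timp1 were lowest, at medians of 5.94, 4.996, 3.91 and 2.73 CPM per kb. The ranges of each gene and its neighbour in this order overlap.

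**Figure D1:**
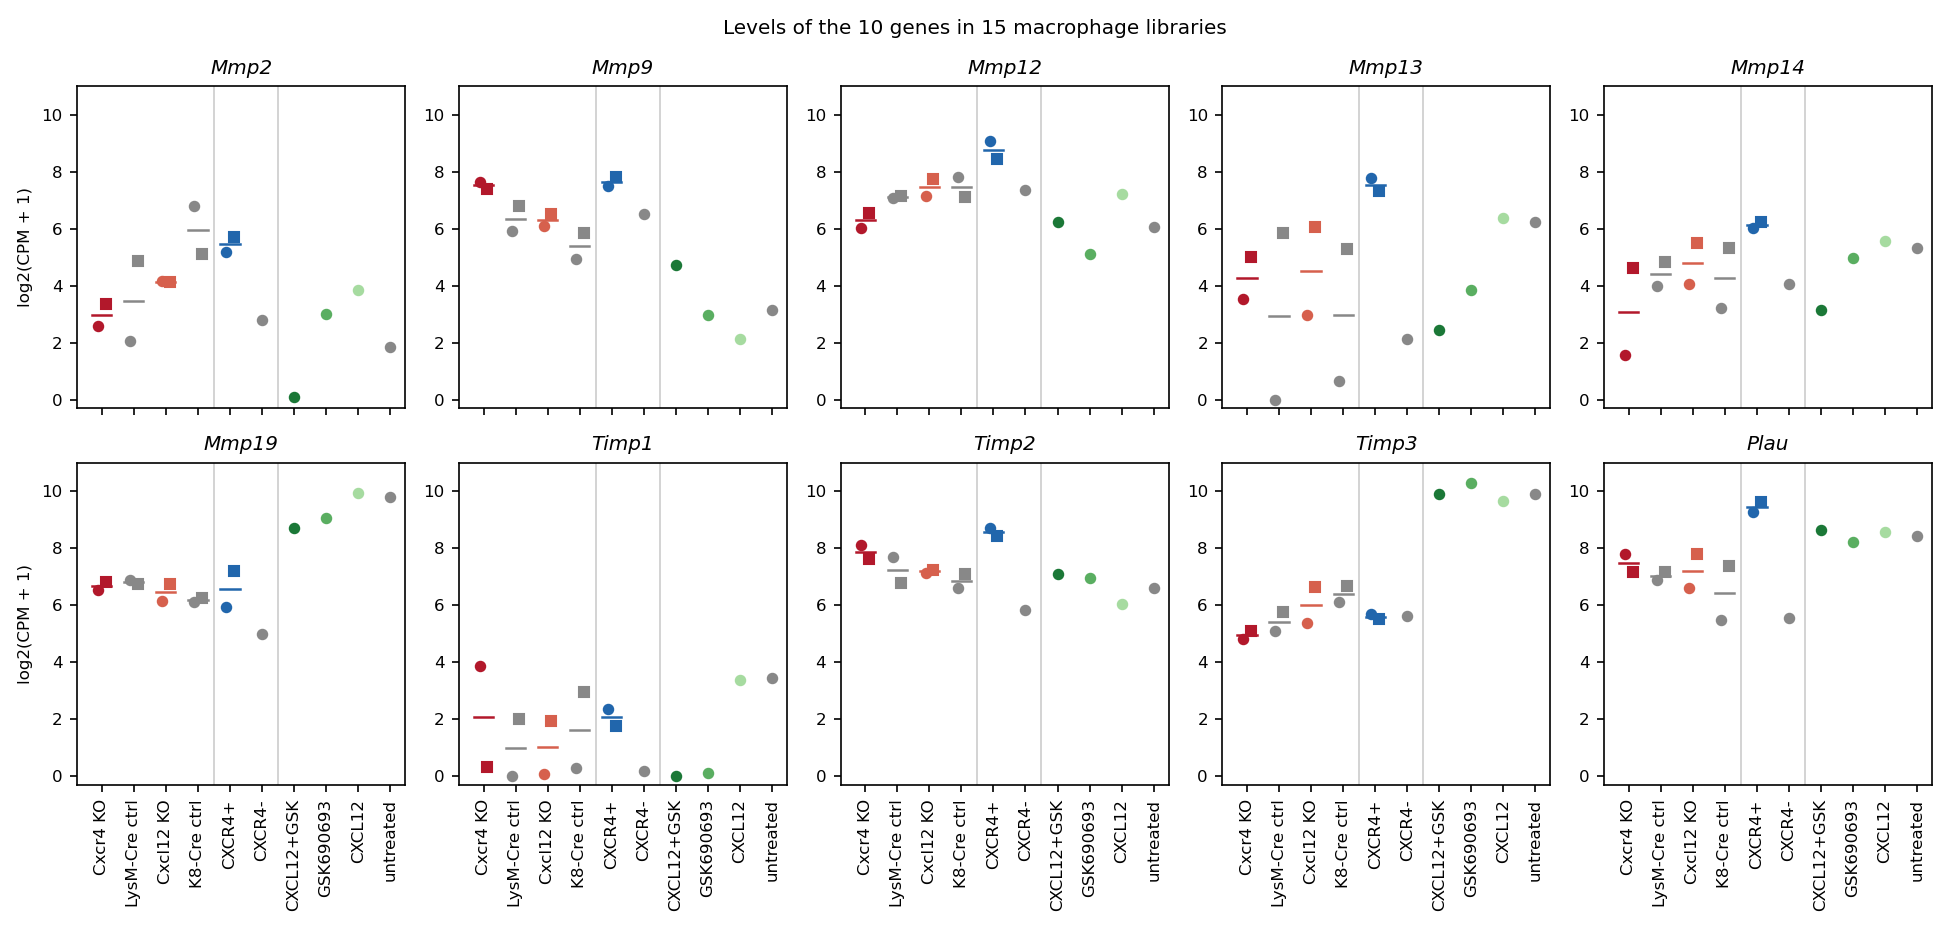
Level of each member, as log2(CPM + 1), in the 15 macrophage libraries, with circles for repeat 1 or a single library, squares for repeat 2 and a line at the mean of groups with 2 libraries. Grey vertical lines divide tables normalized separately. The blue CXCR4+ libraries stand above the grey CXCR4- library for every member but Timp3, and Timp3 and Mmp19 are highest in the 4 cultured libraries.

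The comparison of CXCR4+ with CXCR4- macrophages asks which genes mark the cells that carry the receptor. Of the 10 members, 8 were higher in CXCR4+ cells and none lower by limma's moderated test on log2(CPM + 1) with Benjamini-Hochberg adjustment over 14411 genes, where 8.46% of all genes tested were called, 5.06% higher and 3.4% lower. These calls rest on the fitted trend of spread with level, because the CXCR4- group is a single library, assumed to vary like the CXCR4+ pair, and the fit has 1 residual degree of freedom. Without that trend, and likewise without the filter on low values, none of the 10 members passed, 6 of them had an unadjusted p under 0.05 in each case, and the lowest adjusted p was 0.228 and 0.258 (limma). The 8 were 5 metalloproteinases of the secreted kind, Mmp14, Plau and Timp2. Both CXCR4+ libraries lay above the CXCR4- library for these 8 and for Timp1, which had entered the test only through the CXCR4+ libraries, as for 32.1% of all genes tested. The log2 differences of the 10 ran from -0.03 to 5.43, and the median of all genes tested was -0.20 (-0.09 after quantile normalization).

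Mmp13, the main collagenase of mice, differed most. It was at 219 and 158 CPM in CXCR4+ cells, against 3.32 CPM in CXCR4- cells. The mean in CXCR4+ cells, 188 ± 42.9 CPM (SD, n = 2), was 56.7-fold that of CXCR4- cells, and the log2 difference was 5.43 (SE 0.44, 95% interval 4.57 to 6.30, limma adjusted p = 8.8e-32), with an error that comes from the trend and not from repeats of CXCR4- cells. Both CXCR4+ libraries were far above the CXCR4- library. They were also above every one of the 8 knockout-experiment libraries, which ran from 0 to 65.5 CPM, although that table was normalized separately. The CXCR4- level lay within that range, in which the libraries numbered 1 had 0 to 10.7 CPM. In the knockout comparisons the SE of the Mmp13 log2 change was 1.59, against 0.44 in the sort.

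Plau, which encodes the plasminogen activator urokinase, was at 618 and 784 CPM in CXCR4+ cells, against 46.1 CPM in CXCR4- cells. The log2 difference was 3.89 (SE 0.33, 95% interval 3.23 to 4.54, limma adjusted p = 1.9e-28, again with the error from the trend), and the mean was 15.2-fold that of CXCR4- cells. Per kilobase, Plau led all members in CXCR4+ cells at 261 and 331 CPM per kb, whereas in CXCR4- cells Mmp9 led at 25.4 CPM per kb and Plau had 19.5 CPM per kb. The urokinase receptor gene Plaur, which holds the enzyme at the cell surface, did not pass. It was at 153 and 252 CPM in CXCR4+ cells, against 217 CPM in CXCR4- cells, with a 95% interval of the log2 difference from -0.82 to 0.52.

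The gelatinase A group comprises Mmp2, the enzyme that degrades denatured collagen and basement membrane collagen, its activator Mmp14 and Timp2, which inhibits metalloproteinases and also bridges pro-MMP2 to MMP14 at the membrane. All of them rose. Mmp2 was at 35.4 and 51.2 CPM in CXCR4+ cells, against 5.95 CPM in CXCR4- cells, a log2 difference of 2.65 (SE 0.59, limma adjusted p = 0.00025). Mmp14 was at 64.5 and 74.8 CPM in CXCR4+ cells, against 15.6 CPM in CXCR4- cells (2.08, SE 0.47, limma adjusted p = 0.00030). Timp2 was at 417 and 346 CPM in CXCR4+ cells, against 55.3 CPM in CXCR4- cells (2.76, SE 0.34, limma adjusted p = 1.5e-13). The CXCR4+ pair stood clear of the CXCR4- library for each of these genes.

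The remaining metalloproteinases differed less. Mmp12, the macrophage elastase, was at 536 and 343 CPM in CXCR4+ cells, against 163 CPM in CXCR4- cells (log2 difference 1.39, SE 0.33, limma adjusted p = 0.00078). Mmp9, gelatinase B, was at 180 and 222 CPM in CXCR4+ cells, against 89.96 CPM in CXCR4- cells (1.14, SE 0.35, limma adjusted p = 0.0188). Mmp19, a metalloproteinase that cleaves basement membrane proteins, was at 59.7 and 147 CPM in CXCR4+ cells, against 30.7 CPM in CXCR4- cells (1.58, SE 0.42, limma adjusted p = 0.0033). The CXCR4+ libraries differed from each other more for Mmp19 than for any other member that passed, so its fold was 1.95 in 1 library and 4.79 in the other.

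The other tissue inhibitors did not pass. Timp3, which binds to the matrix, was at 50.04 and 44.6 CPM in CXCR4+ cells, against 48.4 CPM in CXCR4- cells. Its log2 difference was -0.03 (95% interval -0.92 to 0.86, limma adjusted p = 0.982), and its sign flips with quantile normalization (0.05) and with median-ratio size factors (0.12). Timp1 was at 4.06 and 2.43 CPM in CXCR4+ cells, against 0.129 CPM, or 3 reads, in CXCR4- cells, and it entered the test only through the CXCR4+ libraries. Its log2 difference of 1.88 had a 95% interval of -0.86 to 4.62 (limma adjusted p = 0.504).

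**Figure D2:**
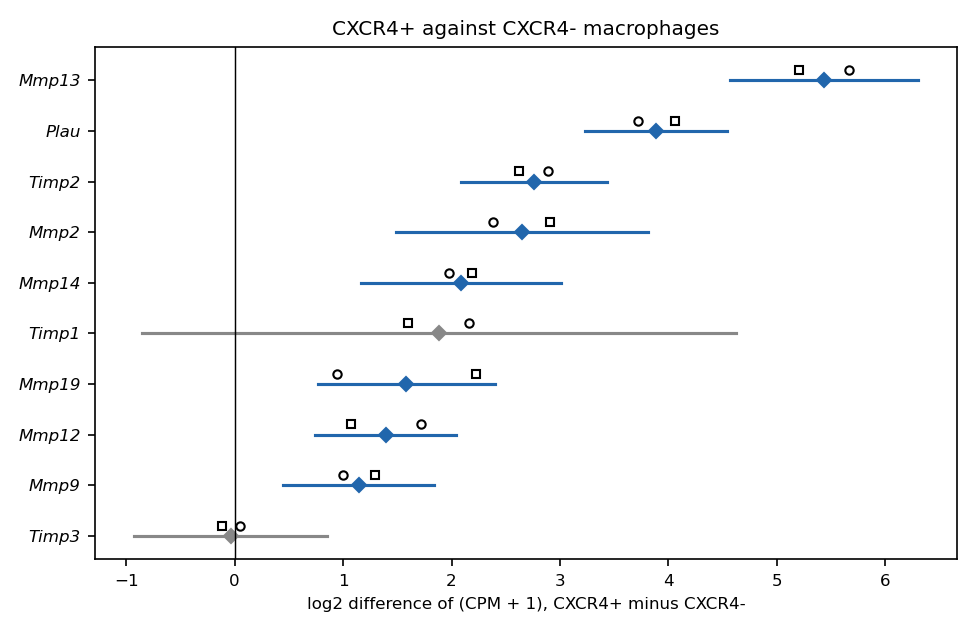
Log2 difference of (CPM + 1) between CXCR4+ and CXCR4- macrophages for each member (diamond) with its 95% interval from limma (line). Open circles and squares give CXCR4+ libraries 1 and 2 minus the single CXCR4- library, and members in blue passed an adjusted p of 0.05. Mmp13 lies at 5.43 and Plau at 3.89, and only the intervals of Timp1 and Timp3 cross 0.

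Markers of several cell types also differed between the sorted libraries. Fibroblast markers summed to 210 and 469 CPM in CXCR4+ cells, against 99.9 CPM in CXCR4- cells, with all 8 of 8 at 1 CPM or more in each library. Macrophage markers summed to 12319 and 14405 CPM in CXCR4+ cells, against 7192 CPM in CXCR4- cells, and 5 eosinophil markers to 30.2 and 24.5 CPM, against 243 CPM in CXCR4- cells. The 6 dendritic cell markers summed to 197 and 169 CPM in CXCR4+ cells, against 842 CPM in CXCR4- cells, and the 3 mast cell markers listed there to 41.6 and 47.0 CPM, against 127 CPM in CXCR4- cells. The 8 luminal epithelial markers summed to 328 and 718 CPM in CXCR4+ cells, against 305 CPM in CXCR4- cells. Both CXCR4+ libraries were also lower in the pericyte, endothelial, neutrophil, B cell and T and NK cell sums. The basal epithelial sum was slightly higher in both. For the 1 adipocyte marker listed, the CXCR4- library lay between the CXCR4+ libraries. Among all genes tested, both CXCR4+ libraries lay above the CXCR4- library for 32.1% and below it for 44.6%. The part of other cell types in these differences was not tested.

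The neighbours of these genes in the proteolytic system moved in both directions, by calls that likewise end without the trend or the filter. Of 11 tested genes of the plasminogen system, 1 rose and 2 fell in CXCR4+ cells. Serpinb2, an inhibitor of urokinase, was at 1.94 and 2.79 CPM in CXCR4+ cells, against 67.3 CPM in CXCR4- cells (log2 difference -4.35, limma adjusted p = 6.0e-05). Serpinb6a, an intracellular serine protease inhibitor, was at 124 and 118 CPM in CXCR4+ cells, against 6.12 CPM in CXCR4- cells (4.10, limma adjusted p = 9.2e-17). Anxa2, which binds plasminogen and its activators at the cell surface, fell (-1.43, limma adjusted p = 0.0021).

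Among 16 tested ADAM and ADAMTS proteases, the membrane proteases Adam9 (1.48) and Adam15 (1.49) rose and Adam8 (-2.37) fell. Adam33 was at 17.6 and 8.42 CPM in CXCR4+ cells, against 0.086 CPM in CXCR4- cells, and is not counted here because it entered the test only through the CXCR4+ libraries. Of 14 activators, surface partners and other inhibitors, 2 rose and 2 fell, with a median of 0.34. Cd63 (2.07), a tetraspanin that binds TIMP1, and Lcn2 (2.82), which forms a complex with MMP9, rose, while Itgb3 (-2.94), part of a receptor that can dock MMP2, and the matrix protein gene Thbs1 (-2.31) fell. Of 17 matrix substrates, the collagen genes Col1a1 (1.99), Col3a1 (1.79) and Col1a2 (1.41) rose and the fibronectin gene Fn1 (-1.44) fell, with a median of 0.49. These collagen genes are also 3 of the 8 fibroblast markers. None of 5 other metalloproteinase genes passed, and 1 of them, Mmp25, had an unadjusted p under 0.05. It was at 44.1 and 33.9 CPM in CXCR4+ cells, against 84.1 CPM in CXCR4- cells (-1.10, limma adjusted p = 0.116).

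Deletion of Cxcr4 in myeloid cells asks what the receptor does in the macrophage. No member passed in Cxcr4 knockout macrophages against LysM-Cre controls, by limma with Benjamini-Hochberg adjustment over 17275 genes, of which 0.00579% (1 gene, the myeloid lysozyme gene Lyz2, lower) passed. None of the 10 had an unadjusted p under 0.05, as 575 of all genes did, and the adjusted p was 1 for each. The libraries did not overlap for 4 members, against 25.4% of all genes tested: Mmp9 and Plau were higher (16.7% of all genes) and Mmp12 and Timp3 lower (8.76%).

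Mmp9 was at 197 and 168 CPM in Cxcr4 knockout macrophages, against 59.1 and 110 CPM in LysM-Cre controls. The fitted difference was 1.16 on the log2 scale (95% interval from -0.21 to 2.54). Between the libraries numbered 1 it was 1.72 and between those numbered 2 it was 0.61, although the numbers were not taken as pairs. Without the first LysM-Cre control library it was 0.72. Both knockout libraries exceeded both controls. The median of all genes was 0.14 here (0.0080 after quantile normalization), and relative to it Mmp9 was at 1.02.

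Mmp12 was at 64.4 and 92.9 CPM in Cxcr4 knockout macrophages, against 133 and 142 CPM in controls. The fitted log2 difference was -0.82 (95% interval from -2.01 to 0.38). Timp3 was at 26.8 and 33.0 CPM in the knockout, against 33.1 and 52.7 CPM in controls, so its groups were separated by a narrow gap (-0.48, 95% interval -2.10 to 1.14). Plau was at 219 and 143 CPM in the knockout, against 118 and 141 CPM in controls, with a log2 difference of 0.89 between the libraries numbered 1 and 0.01 between those numbered 2. Its overall log2 change was 0.45 (95% interval -0.79 to 1.69). For both of these genes the nearest libraries of the groups nearly touched.

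The remaining 6 members overlapped between the groups. Timp2 was at 276 and 197 CPM in Cxcr4 knockout macrophages, against 203 and 109 CPM in controls, and Mmp19 at 90.4 and 112 CPM, against 116 and 107 CPM. Timp1 reached 13.4 CPM in the first Cxcr4 knockout library, the highest of the 15 macrophage libraries, but 0.250 CPM in the second, against 0 and 2.98 CPM in controls. Mmp13 was at 10.7 and 30.8 CPM in the knockout, against 0 and 56.5 CPM in controls, Mmp14 at 1.96 and 23.3 CPM, against 14.8 and 27.3 CPM, and Mmp2 at 4.99 and 9.22 CPM, against 3.18 and 28.3 CPM. For Mmp2, Mmp13, Mmp19 and Timp1 the difference between same-numbered libraries had opposite signs for the numbers 1 and 2.

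Summed markers of some cell types did not overlap between the Cxcr4 knockout and its controls. The sums of all other cell types examined, fibroblast and endothelial among them, overlapped. Of all genes tested, 25.4% did not overlap. The 8 macrophage markers summed to 4279 and 3058 CPM in the knockout, against 13480 and 5452 CPM in controls. The difference lay in Lyz2, the gene that carries the LysM-Cre insertion, which was at 67.4 and 51.7 CPM in the knockout, against 10226 and 2780 CPM in controls. The 4 B cell markers summed to 16.8 and 55.9 CPM in the knockout, against 120.1 and 110.4 CPM in controls, and the 4 T and NK cell markers to 12.1 and 8.47 CPM, against 51.2 and 51.0 CPM, with Cd3d and Ncr1 at 0 in the first library of both groups. None of these sums overlapped between the groups, and their part in the members' values was not tested.

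Loss of luminal Cxcl12 asks whether the ligand from the epithelium alters the macrophages around it. No member passed in macrophages of Cxcl12 knockout mice against K8-Cre controls, nor did any of the 17275 genes (0%), 491 of which had an unadjusted limma p under 0.05. None of the 10 members was among those 491. The libraries did not overlap for 3 members, against 28.4% of all genes tested: Mmp9 and Timp2 were higher (20.4% of all genes) and Mmp2 lower (8.03%). The median log2 change of all genes was 0.36 here, and 0.02 after quantile normalization, so small positive changes lie near the centre of all genes. Relative to that median, Mmp2 was at -2.17, Mmp9 at 0.56 and Timp2 at -0.025.

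Mmp2 was at 16.8 and 16.3 CPM in macrophages of Cxcl12 knockout mice, against 110 and 33.1 CPM in K8-Cre controls. It had the largest log2 change of the 10, at -1.81 (95% interval from -4.38 to 0.76), with -2.64 between the libraries numbered 1 and -0.98 between those numbered 2. The knockout libraries nearly coincide, and the spread lies between the controls. Without the first K8-Cre control library the log2 change was -0.96.

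Mmp9 was at 67.2 and 90.1 CPM in macrophages of Cxcl12 knockout mice, against 29.3 and 56.1 CPM in controls (log2 change 0.92, 95% interval -0.45 to 2.30). Without the first K8-Cre control library it was 0.47. Its groups did not overlap in either knockout experiment, with the knockout higher in both. Taken singly, 16.7% of all genes were higher without overlap in the Cxcr4 knockout and 20.4% in the Cxcl12 knockout. The share of all genes higher in both was not counted. Timp2 was at 138 and 151 CPM, against 96.6 and 134 CPM in controls (0.34, 95% interval -0.82 to 1.49), with a narrow gap between the groups. Plau was at 96.1 and 223 CPM, against 43.7 and 165 CPM in controls, so its groups overlapped, although it was higher in the knockout between libraries of either number.

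The other members also overlapped. Mmp12 was at 141 and 212 CPM in macrophages of Cxcl12 knockout mice, against 223 and 137 CPM in controls, and Mmp19 at 69.9 and 106 CPM, against 68.8 and 75.9 CPM. Timp3 was at 40.4 and 97.6 CPM, against 67.2 and 99.8 CPM, and Timp1 at 0.065 and 2.81 CPM, against 0.233 and 6.80 CPM. Mmp13 was at 6.79 and 65.5 CPM, against 0.581 and 37.9 CPM, and Mmp14 at 15.7 and 44.2 CPM, against 8.25 and 39.2 CPM. Macrophage markers summed to 6827 and 9017 CPM in macrophages of Cxcl12 knockout mice, against 10352 and 10268 CPM in controls, and T and NK cell markers to 56.0 and 31.1 CPM, against 23.1 and 15.02 CPM, with Cd3d at 0 in both controls. The 4 mast cell markers summed to 185 and 151 CPM in the knockout, against 236 and 202 CPM in controls. None of these sums overlapped between the groups, while the sums of all other cell types examined did. Of all genes tested, 28.4% did not overlap. The part of these cell types in the members' values was not tested.

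**Figure D3:**
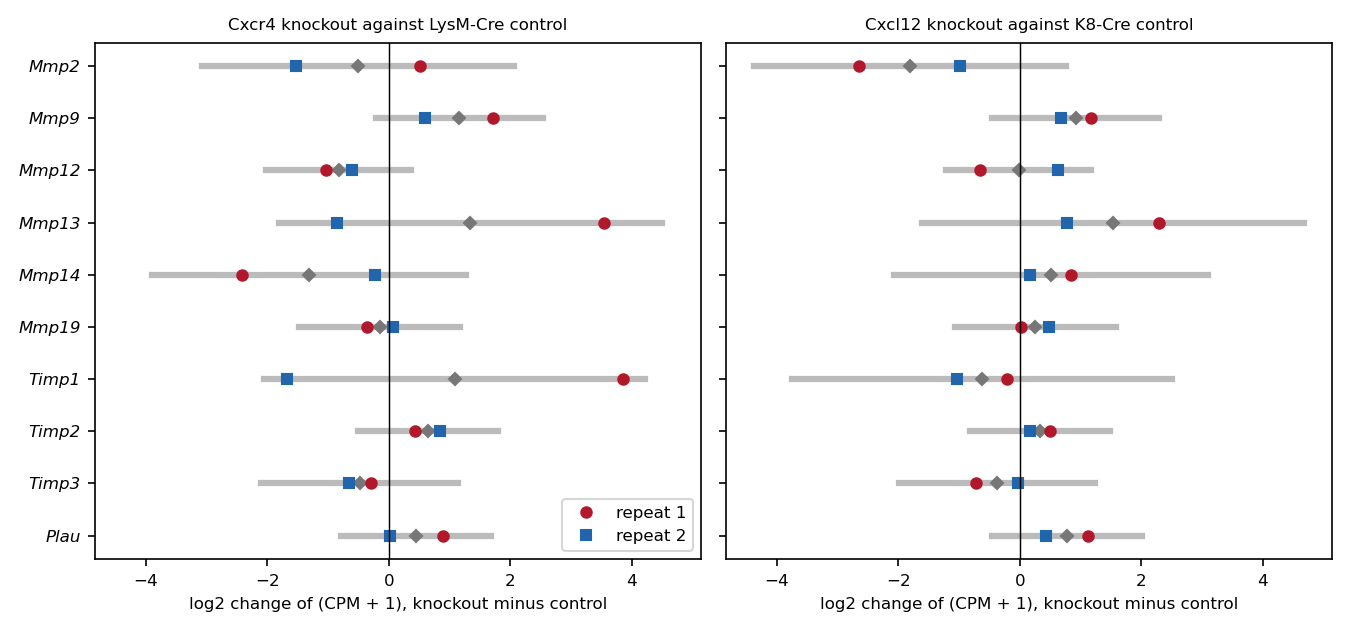
Log2 change of (CPM + 1) for each member, knockout minus control, in the Cxcr4 knockout (left) and the Cxcl12 knockout (right). Grey diamonds and lines are limma estimates with 95% intervals, and red circles and blue squares are the differences between libraries numbered 1 and between those numbered 2, which are not pairs by the labels. Every interval includes 0, and Mmp13 and Timp1 have the widest spread between these differences in the Cxcr4 knockout.

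The change in the Cxcr4 knockout was also set against that in the Cxcl12 knockout. No member passed (1 of 17275 genes passed, 0.00579%), none had an unadjusted limma p under 0.05, as 428 of all genes did, and the differences ran from -1.83 for Mmp14 to 1.71 for Timp1. Of the genes neighbouring the members in the proteolytic system, none passed in either knockout: 0 of 8 other metalloproteinases, 0 of 12 plasminogen system genes, 0 of 17 ADAM and ADAMTS proteases, 0 of 16 activators and partners and 0 of 18 matrix substrates. Leaving out both first control libraries, which list 30.6% (LysM-Cre) and 37.1% (K8-Cre) of genes at 0, again left 0 of 10 members in each comparison.

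The libraries numbered 1 and 2 differed for the collagenase pair regardless of genotype. Mmp13 was at 30.8 to 65.5 CPM in the 4 libraries numbered 2, against 0 to 10.7 CPM in the 4 numbered 1. Mmp14 was at 23.3 to 44.2 CPM in the libraries numbered 2, against 1.96 to 15.7 CPM in those numbered 1. No overlap of this kind, with libraries numbered 2 higher, was found for 5.65% of all genes tested (2.87% with libraries numbered 2 lower) and for 2 of the 10 members. The labels do not say what the repeat number stands for. Every library numbered 2 was deeper (20.1 to 37.2 M reads) than every library numbered 1 (8.60 to 16.8 M reads). The repeat number and depth therefore cannot be told apart here.

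Culture with CXCL12 and the AKT inhibitor GSK690693 asks which responses to the chemokine pass through AKT. With 1 library a condition there is no replicate check, and members are described by ratios of (CPM + 1), taken as past 2-fold where at least 1 library reached 1 CPM. The intervals of raw folds cover counting error only. Under CXCL12 with GSK690693, 1 member was past 2-fold higher and 5 lower than in untreated cells, where 18.8% of all genes were higher and 40.5% lower. Under GSK690693 alone 1 was higher and 2 lower (24.1% and 25.9% of all genes), and under CXCL12 alone 2 were higher and 1 lower (22.9% and 20.7%).

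Mmp13 was at 4.49 CPM with both agents, 13.3 CPM with GSK690693 and 81.9 CPM with CXCL12, against 73.6 CPM untreated. Its log2 ratio to untreated cells was -3.76 with both, -2.38 with GSK690693 and 0.15 with CXCL12. Timp1 was likewise low with the inhibitor, with 0 reads with both agents, 0.070 CPM (1 read) with GSK690693 and 9.33 CPM with CXCL12, against 9.79 CPM untreated. With both agents it was at least 52.3-fold lower than in untreated cells, taking 3 reads as the floor. Both genes were low in the libraries that received the inhibitor and near the untreated level with CXCL12 alone. Those with the inhibitor were also the shallowest cultures. Depth was 16.0 M reads with both agents and 14.3 with GSK690693, against 29.0 with CXCL12 and 21.1 untreated. Repeats of 1 group could also differ widely: Mmp13 was at 0 and 56.5 CPM in LysM-Cre controls. Timp1 was at 13.4 and 0.250 CPM in Cxcr4 knockout macrophages. The part of depth in these levels was not tested.

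Mmp14 was at 7.80 CPM with both agents, 30.7 CPM with GSK690693 and 45.9 CPM with CXCL12, against 38.9 CPM untreated. Mmp19 was at 414, 536 and 967 CPM in the same order, against 892 CPM untreated. For both genes the library with both agents was lowest, at log2 ratios of -2.18 and -1.10 to untreated cells, and the inhibitor alone gave smaller ratios of -0.33 and -0.73.

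Mmp2 was at 0.062 CPM (1 read) with both agents, 7.05 CPM with GSK690693 and 13.5 CPM with CXCL12, against 2.60 CPM untreated. Its raw fold was 5.19 with CXCL12 (95% counting interval 3.91 to 7.01) and 2.71 with GSK690693 (1.93 to 3.84). Mmp2 was thus higher with either agent and lowest with both. Mmp9 showed the reverse order, at 25.1 CPM with both agents, 6.84 CPM with GSK690693 and 3.41 CPM with CXCL12, against 7.85 CPM untreated, with raw folds of 3.20 (2.67 to 3.86) with both and 0.434 (0.335 to 0.560) with CXCL12.

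Mmp12 was at 73.5 CPM with both agents, 33.4 CPM with GSK690693 and 148 CPM with CXCL12, against 65.9 CPM untreated. It was highest with CXCL12 alone, at a raw fold of 2.25 (95% counting interval 2.12 to 2.39). Plau, Timp2 and Timp3 stayed within 2-fold of untreated cells in every condition. Plau was at 397, 298 and 379 CPM with both agents, GSK690693 and CXCL12, against 339 CPM untreated, Timp2 at 137, 122 and 64.5 CPM, against 96.9 CPM, and Timp3 at 960, 1242 and 796 CPM, against 942 CPM.

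The library with both agents lists 31.0% of genes at 0, the most of the 4 cultures, and the median log2 ratio of all genes to untreated cells was -0.39 there, so ratios in it are to be read against that shift. Set against CXCL12 alone, that library had 2 members past 2-fold higher and 6 lower (18.2% and 42.2% of all genes). Set against GSK690693 alone, it had 2 higher and 3 lower of 9 members that reached 1 CPM (19.3% and 39.4%). The part of the genes listed at 0 in these ratios was not tested.

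**Figure D4:**
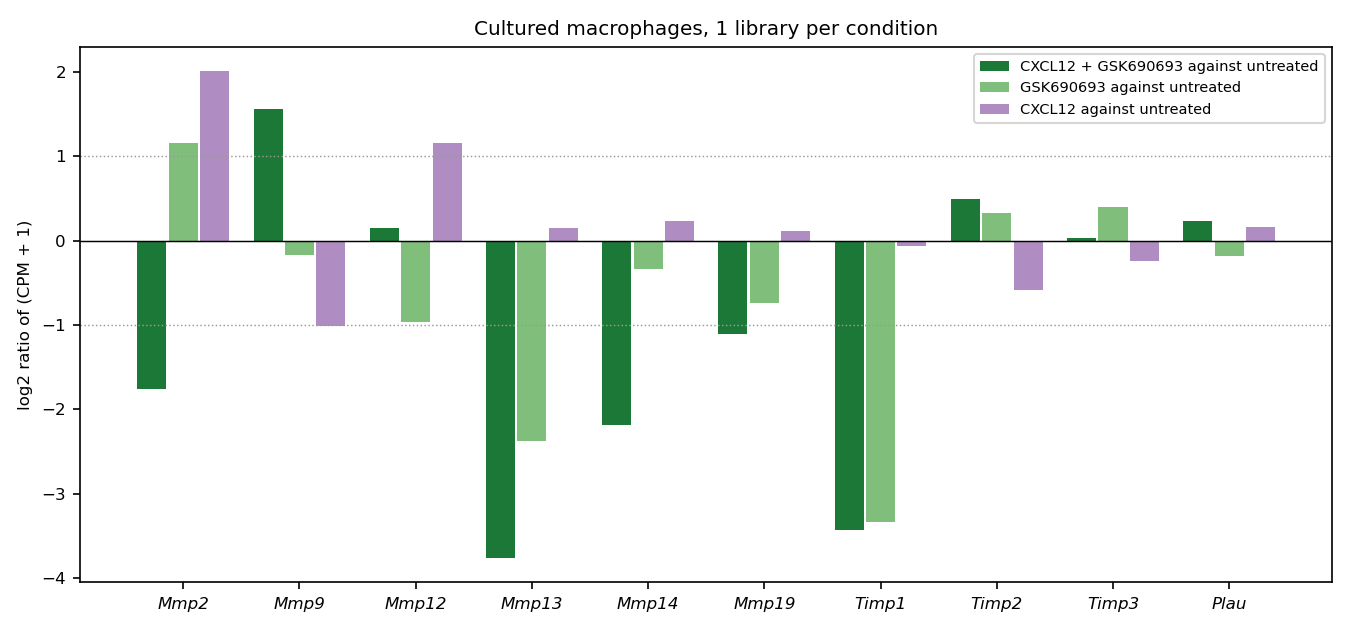
Log2 ratio of (CPM + 1) to untreated cells for each member in cultured macrophages, with 1 library per condition, for CXCL12 with GSK690693, GSK690693 alone and CXCL12 alone. Dotted lines mark 2-fold. Mmp13 and Timp1 lie below the lower line in both conditions with the inhibitor, and Plau, Timp2 and Timp3 stay between the lines.

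The levels of 3 members did not overlap between cultured and freshly sorted macrophages, a comparison given without a test because the tables were normalized separately. Timp3 was at 796 to 1242 CPM in the 4 cultures, against 26.8 to 99.8 CPM in the 11 freshly sorted libraries, a ratio of medians of 19.6. Mmp19 was at 414 to 967 CPM in cultures, against 30.7 to 147 CPM in freshly sorted cells, and Mmp9 at 3.41 to 25.1 CPM in cultures, against 29.3 to 222 CPM. No overlap was found with cultures higher for 7.04% of 14254 genes and with cultures lower for 3.94%. Per kilobase, Mmp19 had the highest median of the members in culture (202 CPM per kb), followed by Plau (152) and Timp3 (117).

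Markers of some other cell types were also higher in the cultured libraries. The summed level of 5 endothelial markers was 1408 to 1907 CPM in cultures, all 5 at 1 CPM or more in each, against 1.28 to 165 CPM in freshly sorted cells. Pericyte markers summed to 726 to 1025 CPM in cultures, against 14.0 to 174 CPM, with 3 of the 5 at 1 CPM or more in the library with both agents. The adipocyte markers listed summed to 338 to 423 CPM in cultures, against 0.636 to 126 CPM, although fewer of them are listed in the CXCR4 sort. Macrophage markers were at 5924 to 9331 CPM in cultures, within the range of freshly sorted cells. The sums of all other cell types examined overlapped between cultured and freshly sorted cells. Whether endothelial cells, pericytes or adipocytes carried the Timp3 or Mmp19 RNA was not tested.

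In P4 basal cells the inhibitors Timp3 and Timp2 were the most abundant members, and 7 of the 8 members that reached 1 FPKM were within 2-fold between genotypes on the FPKM + 1 scale. Timp3 was highest, at 208 FPKM in the knockout and 197 FPKM in the control, followed by Timp2 at 141 FPKM in the knockout and 127 FPKM in the control. Mmp2 was at 81.2 FPKM in the knockout and 86.4 FPKM in the control, Mmp14 at 58.8 FPKM and 59.3 FPKM, and Plau at 51.9 FPKM and 49.5 FPKM. The gelatinase A group thus made up 3 of the 5 most abundant members.

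The macrophage metalloproteinases were low in P4 cells. Mmp12 was listed at 0 in the knockout and at 0.045 FPKM in the control, and Mmp13 at 0 and 0.012 FPKM, while Mmp19 was at 1.67 FPKM in the knockout and 1.57 FPKM in the control. Of the 8 members that reached 1 FPKM, none was past 2-fold higher on that scale in the knockout (13.5% of all genes) and 1, Timp1, was lower (9.68%), at 0.220 FPKM in the knockout and 1.64 FPKM in the control. Mmp9 was at 1.65 FPKM in the knockout and 0.817 FPKM in the control, a raw ratio of 2.02 and a log2 ratio of 0.55 on the FPKM + 1 scale. Macrophage markers summed to 32.5 FPKM in the knockout and 20.5 FPKM in the control, and fibroblast markers to 505 FPKM and 311 FPKM, all 8 at 1 FPKM or more. The part of such cells in the levels of Mmp2, Mmp14 and Timp2 was not tested.

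**Figure D5:**
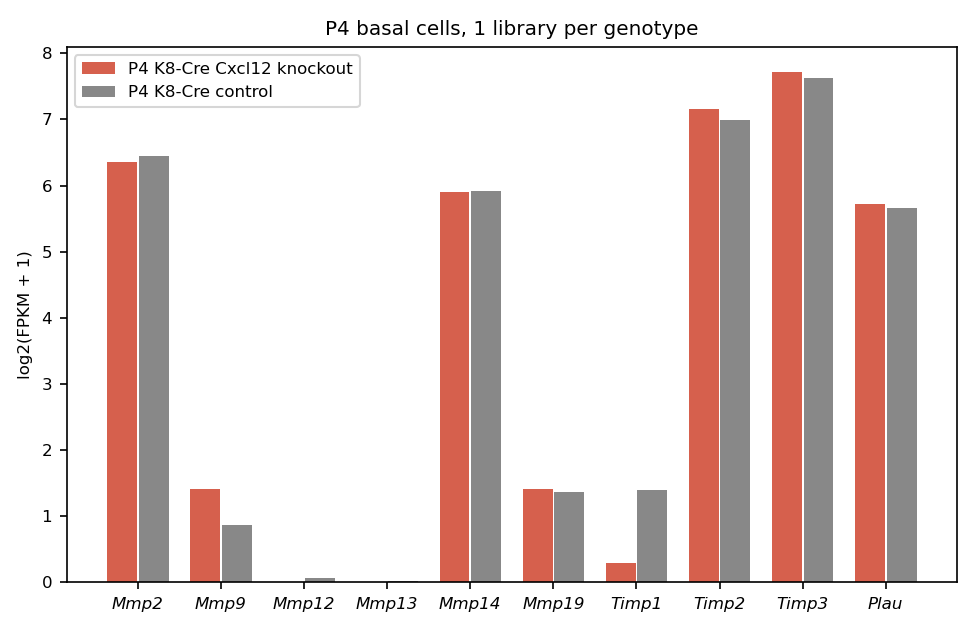
Level of each member, as log2(FPKM + 1), in P4 basal cells of the K8-Cre Cxcl12 knockout and of the K8-Cre control, 1 library each. The bars of each genotype are of nearly equal height for every member but Mmp9 and Timp1, and Mmp12 and Mmp13 are at or near 0.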

How the data were processed

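Per the labels' protocols, total RNA was extracted with RNeasy kits, ribosomal RNA was depleted with the QIAseq FastSelect kit and libraries were made with the PrepX protocol. STAR 2.7.8a, Partek and hg38, a human build, are named in the submitters' processing notes. The symbols are mouse, and gene starts matched GENCODE M21 on GRCm38 for 99.5% of genes in the knockout and CXCR4 tables. The counting step is not given in the sources used here. The deposited macrophage values are log2 values, read from the values as log2(CPM + 0.0001). After removal of the offset, 74.4% to 90.2% of values up to 50 reads were whole multiples of 1 step (tolerance 0.05 reads), too few to recover counts, so the count model planned for counts was replaced by its planned fallback, limma. Depth was taken from that step. The authors' P4 table, as deposited, gives FPKM in the layout of a Cufflinks file.

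The values were converted to CPM. Entries repeating a symbol (91 in the culture table, 27 in the P4 table) gave way to the entry with the highest level. limma 3.58.1 in R 4.3.3 was run on log2(CPM + 1), which understates changes of low genes, keeping genes with 1 CPM or more in 2 or more libraries, with a mean-variance trend. The 8 knockout libraries shared 1 fit of 4 group means, and the 3 sorted libraries another; p-values are two-sided, with Benjamini-Hochberg adjustment across every gene in the fit and calls under 0.05. Residual degrees of freedom were 4 (knockouts, prior 97.3) and 1 (sort, prior infinite). The error thus came mostly from the trend in the knockouts and wholly from it in the sort. The fit was run on simulated data drawn with its own fitted spread, equal in every group. Such data cannot test whether the single CXCR4- library varies as assumed. Cultures and P4 cells have no replicates and were compared by ratios. The members, gene lists and tests were chosen with earlier results of these data known. Genes named beyond the members are those of the lists that passed in the sort, genes given for context (Plaur and Mmp25, chosen after their values were seen) and, in the closing observations, a selection of list genes past 4-fold at 10 CPM or FPKM or more and those most alike to a member. Exon lengths, sequences and overlaps come from GENCODE M21 and RefSeq. Alternatives changed the scaling, the pseudocount, the filter, the trend, the samples in the fit, the replicate block and the minimum level, and left out libraries.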

Additional observations from a re-analysis of the deposited data

Results flagged for a closer look

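The log2 ratio that goes with CXCL12 had opposite signs with and without the AKT inhibitor for 2 members, with 1 library per condition, so the difference was not tested. Mmp2 had a log2 ratio of -2.92 for CXCL12 with GSK690693 against GSK690693 alone, where the level was 1 read, and of 2.01 for CXCL12 against untreated cells. Mmp9 had a log2 ratio of 1.74 for CXCL12 with GSK690693 against GSK690693 alone and of -1.01 for CXCL12 against untreated cells.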

How the results depend on the processing

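No member passed in a knockout comparison under any alternative run. The count of all genes passing for the Cxcr4 knockout (1) became 8 without the filter, 0 without the trend and 2 with only the groups compared, and ran from 1 to 150 with a library left out. For the Cxcl12 knockout (0) it became 1 with only the groups compared and ran from 0 to 151. For the difference between knockouts (1) it became 2 without the filter and 0 without the trend, and ran from 1 to 30. The deviations of same-numbered libraries correlated at 0.057 to 0.139 and only the LysM-Cre pair exceeded 0.1, so the numbers were not taken as pairs; with the replicate block 1 gene passed in each of the 3 comparisons, and no member. In the CXCR4 sort, 0 genes and 0 members passed without the filter and without the trend, while 8 members passed with each other scaling and with the smaller pseudocount. With a minimum of 10, past 2-fold counts fell to 1 member for GSK690693 against untreated cells and 0 for P4 cells. The counts of the other culture comparisons fell too, because Mmp2, Mmp9 or Timp1 stayed below 10 CPM in both libraries compared.

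Signs of members that did not pass were unstable. With both first control libraries left out, an alternative chosen after seeing the data, the log2 change turned for Mmp13 in the Cxcr4 knockout (-1.58), for Mmp12 (0.33), Mmp13 (-0.77), Mmp14 (-0.55) and Plau (-0.17) in the Cxcl12 knockout, and for Mmp2 (-0.95) and Plau (0.49) in the difference. Quantile normalization turned Mmp12 (0.013) and Mmp14 (-0.019) in the Cxcl12 knockout, Mmp13 (1.03) in the difference and Timp3 (0.049) in the sort. The pseudocount of 0.1 turned Mmp13 (0.88) in the difference, and median-ratio factors turned Timp3 (0.12) in the sort. With 1 library left out, a lone library being assumed to vary like the other groups, changes in the Cxcr4 knockout ran from -1.58 to 4.27 for Mmp13, -2.84 to 0.20 for Mmp14, -0.30 to 0.0083 for Mmp19, -1.91 to 0.90 for Mmp2 and -0.67 to 2.85 for Timp1. In the Cxcl12 knockout they ran from -0.37 to 0.33 for Mmp12, -0.77 to 3.85 for Mmp13, -0.55 to 1.57 for Mmp14, -0.047 to 0.55 for Mmp19, -0.17 to 1.72 for Plau, -1.95 to 0.71 for Timp1 and -1.002 to 0.25 for Timp3. In the difference they ran from -3.11 to 2.73 for Mmp13, -0.097 to 2.71 for Mmp2, -0.22 to 0.70 for Mmp9, -1.27 to 0.62 for Plau, -0.053 to 3.48 for Timp1, -0.14 to 0.75 for Timp2 and -0.73 to 0.52 for Timp3. With either CXCR4+ library left out, which leaves no residual degrees of freedom and no test, Timp3 ran from -0.12 to 0.047 in the sort. The cause of these turns was not tested. Levels near 3 reads, such as those of Timp1, are limited by depth.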

Other observations

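Genes around the members in the proteolytic system also differed between the cultures, with 1 library per condition and no test. Those named are a selection. With both agents 18.8% of all genes were past 2-fold higher than untreated and 40.5% lower. The median log2 ratio there was -0.39 for all genes. It was -2.58 for other metalloproteinases, -0.46 for activators and partners and -0.19 for matrix substrates. For ADAM and ADAMTS proteases it was -0.03, and for the plasminogen system 0.09. The urokinase inhibitor gene Serpinb2 was at 37.98 CPM with both agents and 7.33 CPM with GSK690693, against 86.5 CPM untreated. The laminin gene Lamb1 was at 5.61 CPM with both agents, against 98.9 CPM untreated, and the elastin gene Eln was at 0 with both agents, against 12.4 CPM untreated. F3, the tissue factor gene, was at 2.68 CPM with both agents and 9.98 CPM with GSK690693, against 54.2 CPM untreated. Mmp25, a metalloproteinase anchored in the leukocyte membrane, was at 0.125 CPM with both agents and 16.1 CPM with GSK690693, against 66.4 CPM untreated. The inhibitor gene Reck was at 12.8 CPM with GSK690693 and at 0 in untreated cells, and Adamts5, an aggrecanase gene, was at 42.2 CPM with GSK690693 and 6.38 CPM in untreated cells.

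Over the 15 macrophage libraries, the genes most like each member in log2(CPM + 1), among 12928 genes, are given as descriptions; the points share 3 tables normalized separately, and the cultures set several of the values. Timp3 was most like Bcl6b (Pearson r 0.97), Mmp19 most like Clic4 (0.96), Mmp9 most like the Fc receptor gene Fcgr2b (0.95) and Plau most like the cholesterol transporter gene Abca1 (0.94). Timp2 was most like the folate receptor gene Folr2 (0.94), Mmp14 most like Fblim1 (0.93) and Mmp2 most like the chaperone gene Hsp90b1 (0.90). Timp1 was most like Gm44237 (0.88), Mmp13 most like Gdpd1 (0.88) and Mmp12 most like the oxytocin receptor gene Oxtr (0.87). Among the members themselves the highest values were those of Mmp19 with Timp3 (0.87), Mmp13 with Mmp14 (0.73) and Mmp13 with Plau (0.72).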
